A study of Mus musculus with 3 samples.

Results

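Type 2 conventional dendritic cells (cDC2) of the mouse liver were picked out of 2 single-cell libraries by their own RNA counts. A cell was taken as a cDC2 when it held at least 3 UMIs (unique molecular identifiers, 1 per captured RNA molecule) of Cd209a, Clec10a, Mgl2 and Flt3 together, with at least 1 of Cd209a. It could hold at most 2 UMIs of Clec4f and Vsig4, at most 4 UMIs of C1qa, C1qb and C1qc, and no UMI of Xcr1, Clec9a, Siglech, Cd3e or Cd79a. These limits are meant to leave out Kupffer cells (KCs, the resident macrophages of the liver), type 1 conventional dendritic cells (cDC1), plasmacytoid dendritic cells (pDCs), T cells and B cells. The rule found 245 cDC2 among 42971 cells with 200 to 4000 genes and at most 25% mitochondrial UMIs, of 52335 cells in all.

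The study asked how Chi3l1, a chitinase-like protein, acts in liver macrophages of mice with fatty liver. The first library, here called the NCD library, was assigned by elimination to C57BL/6 J wild-type mice on normal chow diet (NCD), as the study's methods describe them, but its deposited title reads MCD and its file header names it APAP0h, so that every statement on diet rests on that assignment. Its number of kept cells lies near the one the study states for chow-fed livers, whereas the pool holds more kept cells than the study states for both genotypes together. The second, here called the HFHC pool, holds cells of wild-type and Chi3l1-/- (Chil1-/-) mice on a high-fat, high-cholesterol (HFHC) diet together, and no cell carries a genotype in the table used. The study states 16 weeks of feeding for both diets, and a C57BL/6 J background for the Chi3l1-/- mice. The number of mice per library is not stated, so that each condition is 1 library, and diet, genotype, capture and library cannot be told apart. The labels call the cells parenchymal, whereas the methods describe non-parenchymal cells. With 1 library per condition no test of a difference was possible, and the 95% intervals given cover counting error only.

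Conventional dendritic cells take up antigen in a tissue, carry it to lymph nodes and show it to T cells as peptides on MHC class II molecules. They grow under the cytokine FLT3 ligand, whose receptor is encoded by Flt3. The cDC2 branch depends on transcription factors such as IRF4 and KLF4, primes CD4 T cells, and shares many surface genes with monocytes, which can take on dendritic cell features in inflamed tissue. In the liver, cDC2 stand beside KCs and monocytes, and a few genes rarely separate these cells cleanly.

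The NCD library gave 146 cDC2, which was 0.625% of its 23346 kept cells (95% exact binomial interval 0.528 to 0.735%). The HFHC pool gave 99 cDC2, 0.504% of 19625 kept cells (0.410 to 0.614%). The intervals overlap, and with no UMI of Clec4f, Vsig4 or C1q genes allowed the order turned to 0.326% and 0.357%. With the gate after thinning to 1500 UMIs the order stayed, at 1.22% and 0.771% of cells of at least that depth. Among cDC2, cDC1 and pDCs together, cDC2 made up 23.7% (20.4 to 27.3%) of 615 dendritic cells in the NCD library against 29.4% (24.6 to 34.6%) of 337 in the pool. The pDC share was 42.4% (38.5 to 46.5%) in the NCD library against 26.7% (22.1 to 31.8%) in the pool, so that these shares of one whole moved together. The cDC2 of the NCD library held 634 to 12225 UMIs with a median of 3857.5, and those of the pool 1537 to 12602 with a median of 6712. The median mitochondrial share was 5.95% and 5.41%. The cDC2 summed to 592621 UMIs in the NCD library against 689367 in the pool. Of the cell indices, 756 occurred in both libraries, but no index named a cDC2 in both. Scrublet marked 8 of the 146 and 2 of the 99 cDC2 as doublets; these were kept and removed only as an alternative.

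Many cells with a Cd209a UMI did not meet the rule. A Cd209a UMI was found in 708 kept NCD cells and in 411 kept cells of the pool. Of the 535 and 333 cells that had passed the limits on marker, KC and C1q genes, 379 and 228 were then removed for a UMI of Siglech, Xcr1 or Clec9a. Siglech, a pDC receptor, was present in 334 of those 379 cells and 175 of those 228, and the cDC1 receptors Xcr1 or Clec9a in 175 and 172, with 130 and 119 cells holding both kinds. Any UMI of these genes removes a cell by the rule, and whether the removed cells were of another type was not tested. Cells just outside the limit of 3 marker UMIs differed from those just inside. The 10 cells of the NCD library with a sum of 2 held 19675 CPM (UMIs of a gene per 1000000 UMIs summed over the cells) of the lysozyme gene Lyz2 and 7151 CPM of the class II gene H2-Ab1, whereas the 6 cells with a sum of 3 held 770.3 CPM and 23109 CPM. In the pool, 8 cells with a sum of 2 held 9434 CPM of Lyz2 and 4548 CPM of H2-Ab1, and 8 cells with a sum of 3 held 841.3 and 11933 CPM. The cells with a sum over 3, which make up most of the cDC2, held 3299 and 3682 CPM of Lyz2 and 22777 and 11079 CPM of H2-Ab1.

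The 4 genes of the rule are given as a description, since they chose the cells. Cd209a encodes a C-type lectin that binds sugars of pathogens, and its gene lies at chr8:3743397-3748984 on the minus strand of GRCm38. Cd209a UMIs per cell ran from 1 to 51 with a median of 7 in the NCD library against 1 to 50 with a median of 7 in the pool. Cd209a supplied 62.4% and 67.8% of all UMIs of the 4 genes. Flt3 (chr5:147330741-147400489, minus strand) had a UMI in 106 of 146 and 68 of 99 cDC2, at 442.1 CPM in the NCD library against 259.7 CPM in the pool. The sugar-binding receptors Clec10a (chr11:70156197-70170834, plus strand) and Mgl2 (chr11:70130329-70137550, plus strand) are neighbours, 18646 bases apart, and their longest reading frames are 90.4% identical over 913 aligned bases, so that reads may not always be told apart. Clec10a was found in 70 of 146 cDC2 of the NCD library and in 64 of 99 of the pool, at 320.6 and 378.6 CPM. Mgl2 went the other way, with 308 UMIs in 52 of 146 cells against 96 UMIs in 19 of 99 cells, that is 519.7 and 139.3 CPM. Its log2 ratio of the pool over the NCD library was -1.89 (-2.25 to -1.56), with the reservation that the rule itself counted Mgl2 UMIs. Most cDC2 of both libraries held no Mgl2 UMI at all, and the highest cell held 26 UMIs in the NCD library against 22 in the pool.

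The label was checked on genes that the rule did not use. A list of 22 further cDC2 markers summed to 11976 CPM in the cDC2 of the NCD library against 9029 CPM in the pool, above classical monocytes (6961 and 6666 CPM) but below cDC1 (26271 and 17301 CPM). The list includes genes of dendritic cells in general, and Cst3, the gene of cystatin C, alone stood at 23117 and 13485 CPM in cDC1 against 6734 and 3448 CPM in cDC2. Gene by gene, 6 of 15 compared were at least 2-fold higher in cDC2 than in cDC1 and 1 lower in the NCD library. Of all genes compared there, 6.08% were higher and 5.81% lower. In the pool 5 of 15 were higher and 3 lower, beside 5.39% and 5.83% of all genes. The 15 measured class II genes summed to 66258 and 51260 CPM in cDC2, 10998 and 15691 CPM in monocytes and 52718 and 44595 CPM in cDC1. Itgax, the gene of CD11c, stood at 502.9 CPM in the NCD library against 429.4 CPM in the pool. Cbfa2t3, a transcriptional co-repressor of dendritic cells, stood at 572 and 580.2 CPM, and Klf4 at 405 and 416.3 CPM. After each cell was thinned to 1500 UMIs, Itgax was found in 49.3% (40.9 to 57.8%) of 144 cDC2 of the NCD library and 37.4% (27.9 to 47.7%) of 99 of the pool. B cells, which do not normally use Itgax, gave a thinned share of 0.938% of 533 and 0.956% of 837. The median depth of B cells was 1361 and 2711 UMIs, and 787 and 26 B cells were too shallow to be thinned. Without thinning, Itgax was found in 69.9% and 69.7% of cDC2 and in 1.06% and 2.67% of B cells. Sirpa, a surface receptor that marks cDC2 among dendritic cells, reached 17.4% (11.6 to 24.6%) and 20.2% (12.8 to 29.5%) of thinned cDC2, against 3.19% and 0.836% of B cells. Without thinning these Sirpa shares were 37.7% and 59.6% of cDC2, and 2.58% and 3.59% of B cells.

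Several textbook genes of cDC2 or of dendritic cells were scarce. Irf4 had 24 UMIs in 21 of 146 cDC2 and 35 UMIs in 27 of 99, and its thinned share of 6.94% and 7.07% was below that in B cells (8.82% and 22.2%), which use Irf4 as well. Without thinning the Irf4 shares were 14.4% and 27.3% of cDC2 and 8.03% and 35.6% of B cells. Zbtb46, a transcription factor of conventional dendritic cells, stood at 102.9 and 53.7 CPM. Esam and Clec4a4, which mark a cDC2 subset known from the spleen, had a UMI in 4.79% and 3.42% of unthinned cDC2 of the NCD library and in 2.02% each in the pool. The thinned shares of Esam were 3.47% and 1.01%, near the B cell shares of 2.63% and 0.597%, and those of Clec4a4 were 0.694% and 1.01%, against 0.188% and 0% of B cells. Without thinning B cells reached 1.67% and 1.51% for Esam. Ccr7, the chemokine receptor that takes mature dendritic cells to lymph nodes, had 1 UMI in 146 cDC2 and 4 UMIs in 99, and without thinning 0.685% and 3.03% of cDC2 held one. None of 144 and 99 thinned cells did, and at that depth the floor of 3 counts allows up to 2.08% and 3.03% of cells with a UMI, which is no limit on cells that use the gene. In B cells, which use Ccr7, the thinned share was 25.5% and 30.2%, and 23.6% and 41.6% without thinning.

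**Figure D1:**
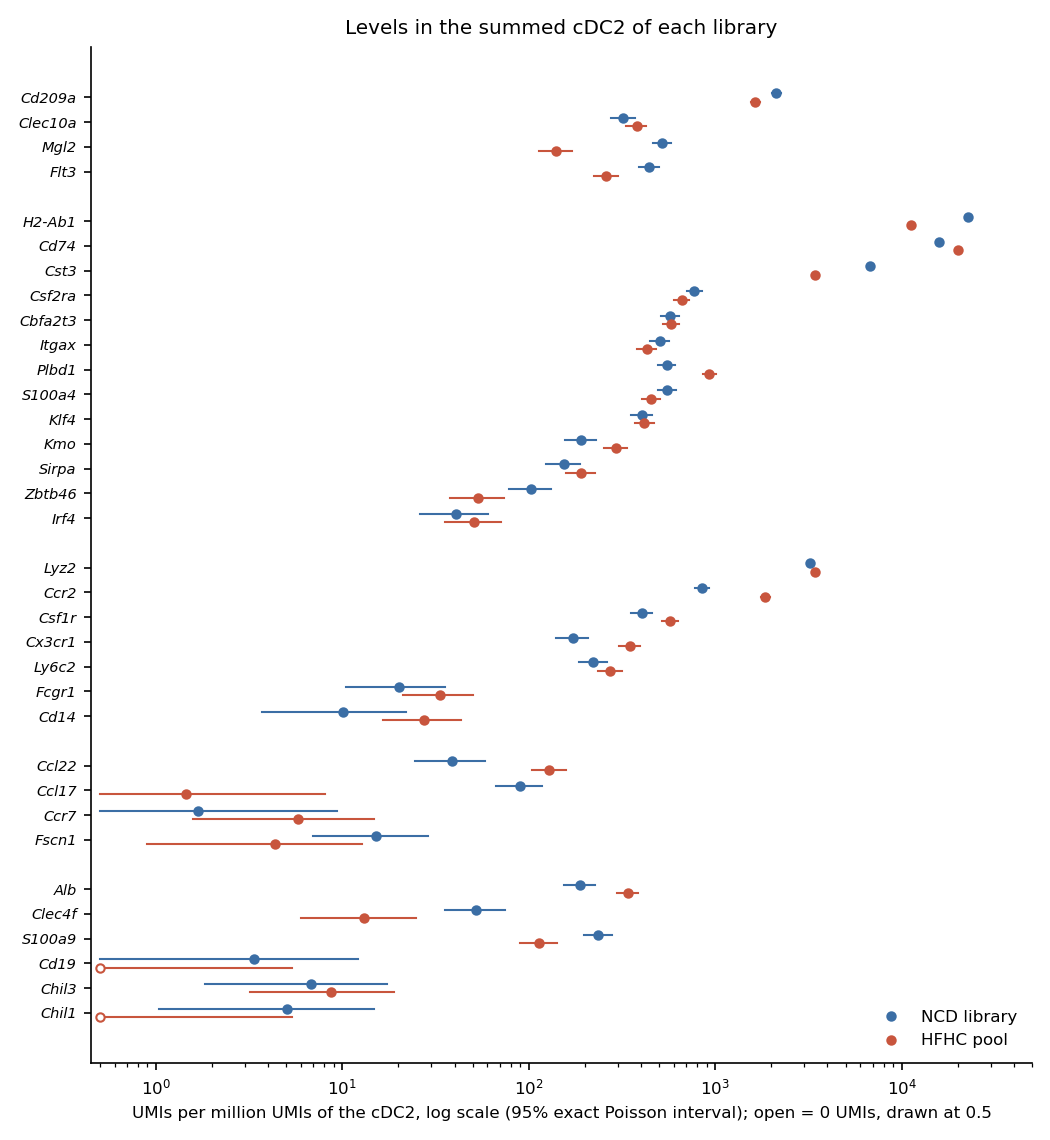
Levels of the genes of the rule (top block), further dendritic cell genes, monocyte genes, maturation genes and genes of other cell types in the summed cDC2 of the NCD library (blue) and the HFHC pool (red). The x axis gives CPM on a log scale, bars are exact Poisson intervals for counting error and open circles mark 0 UMIs; Mgl2, H2-Ab1 and Cst3 sat lower in the pool, Ccr2 and Cx3cr1 higher, and Ccr7 and Chil1 stood near the floor in both.

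RNA of other cells was looked for with whole marker lists. Of 26 hepatocyte genes, all 26 were detected in the cDC2 of both libraries. Their sum was 0.146% of UMIs in the NCD library against 0.217% in the pool, below the 0.448% and 0.449% in B cells. Summed hepatocyte UMIs per cDC2 ran from 0 to 56 with a median of 2.5 in the NCD library against 0 to 290 with a median of 3 in the pool. Of 21 KC genes, 20 and 19 were detected, at 0.127% and 0.121% of UMIs, above the 0.0548% and 0.0284% in B cells. Spic was at 0 in the NCD library and Marco in the pool, as was Vsig4, whose UMIs the rule limits. Cd68 was the most abundant KC gene, and the KC sum of 1274 and 1213 CPM lay below that of classical monocytes (1573 and 1542 CPM). Of 18 neutrophil genes, 13 and 11 were detected, at 0.0982% and 0.0386% of UMIs, against 0.206% and 0.0188% in B cells. A median cDC2 held no neutrophil UMI, whereas 1 cell held 229 in the NCD library and 1 held 205 in the pool. Endothelial genes summed to 0.104% and 0.0654% (0.120% and 0.0710% in B cells) and T and NK cell genes to 0.0196% and 0.0473% (0.0663% and 0.0560% in B cells). The sums were 0.0344% and 0.0367% for B cell and plasma cell genes, against 4.72% and 10.7% of the UMIs of B cells. Pax5 and Mzb1 were at 0 in both libraries, as were Cd3e and Cd79a, which the rule sets to 0. The 27 monocyte genes summed to 0.935% and 1.24% of UMIs (0.277% and 0.225% in B cells). Of the cDC2, 92 of 146 and 96 of 99 held 20 or more of these UMIs. The 13 pDC genes summed to 0.0584% and 0.0757% (0.146% and 0.124% in B cells), and 20 of 146 and 41 of 99 cDC2 held 5 or more. Both counts of cells were taken without thinning, and the cDC2 of the pool were deeper, at a median of 6712 UMIs against 3857.5. They therefore do not compare the libraries at equal depth. The 16 cDC1 genes summed to 0.119% and 0.0809% (0.132% and 0.113% in B cells). The rule sets Siglech, Xcr1 and Clec9a to 0. The part of such RNA in the results was not tested beyond the alternatives given.

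The cDC2 were next set against classical monocytes. Classical monocytes were taken as cells with Ly6c2 and Lyz2 UMIs and few UMIs of other types, 129 in the NCD library against 252 in the pool, with medians of 3434 and 6356.5 UMIs. Leaving out the genes that chose either type, 1817 genes of the NCD library had at least 100 UMIs in both types together. Of these, 109 (6%) were at least 2-fold higher in cDC2 and 197 (10.8%) at least 2-fold lower. In the pool 131 of 3700 genes (3.54%) were higher and 290 (7.84%) lower. In both libraries, 62 of 1804 genes were higher and 117 lower. The genes furthest above monocytes in both libraries included the cyclin gene Ccnd1, with 1072 CPM in cDC2 and 46.9 CPM in monocytes of the NCD library, and 551.2 against 9.36 CPM in the pool. Klrd1, the gene of the CD94 receptor chain, stood at 410 against 25.6 CPM and at 319.1 against 4.99 CPM. Dpp4, which encodes the surface peptidase CD26, stood at 165.4 against 21.3 CPM and at 213.2 against 15.6 CPM. Kmo, an enzyme of tryptophan breakdown, stood at 190.7 against 25.6 CPM and at 293 against 39.3 CPM, the creatine kinase Ckb at 222.7 against 32 CPM and at 129.1 against 21.2 CPM, and the transcription factor Bcl11a at 156.9 against 25.6 CPM and at 175.5 against 27.5 CPM.

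The same comparison put MHC class II genes above monocytes in both libraries. The list holds 17 genes. In the NCD library 11 of them had enough UMIs. Of these, 9 were at least 2-fold higher in cDC2 (6% of all genes were) and none lower (10.8% were). The median log2 ratio was 2.74 against -0.07 for all genes. In the pool 8 of 12 were higher (3.54% of all genes were) and none lower (7.84% were), with a median of 1.80 against -0.02. The peptide-loading regulators H2-Ob (221.1 against 2.13 CPM, and 159.6 against 7.49 CPM in the pool) and H2-DMb2 (534.9 against 14.9 CPM, and 203.1 against 13.7 CPM) were among the 10 highest. H2-Eb1, a chain of the class II molecule itself, stood at 8646 against 603.2 CPM and at 6232 against 1067 CPM. The monocyte list lay on the other side, with 9 of 14 genes lower and none higher in the NCD library and 15 of 22 lower and none higher in the pool, at medians of -1.73 and -1.63. Of all genes, 10.8% and 7.84% were lower and 6% and 3.54% higher. Ly6c2, Lyz2, Csf1r and Ccr2, which had been used to choose the monocytes, are left out of these counts. The furthest below monocytes was Chil3, a chitinase-like gene, with 4 UMIs in the cDC2 of the NCD library and 6 in those of the pool (6.75 and 8.70 CPM), against 1426 and 700.6 CPM in monocytes. The lectin receptor Clec4e (18.6 against 315.4 CPM, and 29 against 530.3 CPM), the haem-degrading enzyme Hmox1 (20.2 against 240.8 CPM, and 13.1 against 214 CPM), the lipase Lpl (30.4 against 549.9 CPM, and 31.9 against 360.6 CPM) and the formyl peptide receptor Fpr2 (32.1 against 326.1 CPM, and 11.6 against 272.6 CPM) followed.

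Against cDC1 the monocyte-shared side of cDC2 stood out. The cDC1, chosen by Xcr1 and Clec9a, numbered 208 and 148. In the NCD library 181 of 2976 genes (6.08%) were at least 2-fold higher in cDC2 and 173 (5.81%) lower, and in the pool 184 of 3411 (5.39%) and 199 (5.83%). In both, 99 of 2761 genes were higher and 113 lower. Endothelial genes moved with this comparison, with 9 of 11 at least 2-fold lower in cDC2 in each library and sums of 1043 against 3178 CPM in cDC1, and 654.2 against 2552 CPM in the pool; their part in it was not tested. Of the monocyte list, 11 of 15 genes were higher and 1 lower in the NCD library, and 11 of 16 higher and 1 lower in the pool, at medians of 1.72 and 1.94. The fractalkine receptor Cx3cr1 stood at 172.1 against 7.09 CPM in the NCD library and 348.1 against 11.1 CPM in the pool. Itgam, the gene of CD11b, stood at 340.9 against 12.6 CPM and 303.2 against 23 CPM. The calcium-binding protein S100a4 stood at 551.8 against 15 CPM and 454 against 42.3 CPM, and the chemokine Ccl9 at 450.5 against 37.8 CPM and 535.3 against 48.2 CPM. Cybb, a subunit of the phagocyte oxidase, stood at 926.4 against 76.4 CPM and 1586 against 203.3 CPM. Mcemp1, Clec4a1, Ifitm6 and Ms4a4c were the others of the 10 highest, with log2 ratios of 2.96 to 5.02. Slamf9 was the 1 gene among the 10 furthest above both monocytes and cDC1, at 185.6 CPM in cDC2 of the NCD library, 6.39 in monocytes and 6.30 in cDC1, and at 140.7, 13.1 and 17.8 CPM in the pool. On the low side, Gpr141b had 1 UMI in the cDC2 of each library against 356.6 and 360.6 CPM in cDC1, and Ttc39a had 0 in both, which makes it at least 17.9-fold and 17.2-fold lower with a floor of 3 UMIs per library. Fzd1 had 0 and 1 UMIs, Rab7b 3 and 8, and Sept3 7 and 0. Of the class II list, 2 of 13 genes were higher and 1 lower than in cDC1 in the NCD library, and 1 of 14 higher and 1 lower in the pool, at medians of 0.37 and 0.23.

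**Figure D2:**
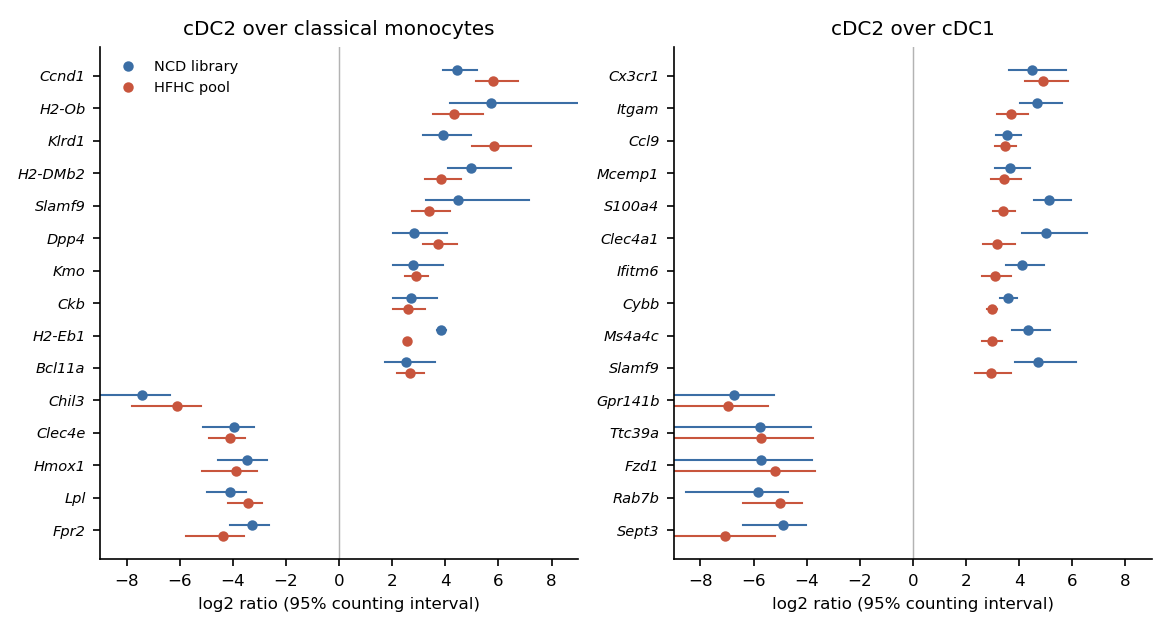
Ratios of cDC2 to classical monocytes (left) and to cDC1 (right) for the 10 highest and 5 lowest genes in both libraries, on a log2 scale with 95% counting intervals, which are clipped at -9 and 9. The 2 libraries lay on the same side of 0 for each gene shown, because the genes were picked for it; Slamf9 appears in both panels.

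The libraries were then set side by side within cDC2. Of 2220 genes with at least 100 UMIs in the cDC2 of both libraries together, 91 (4.1%) were at least 2-fold higher in the HFHC pool and 60 (2.7%) at least 2-fold lower, around a median log2 ratio of 0.05. The same ratio was taken in cDC1, classical monocytes, B cells and T cells. Of the 90 higher genes that had values in at least 2 of these types, 49 had a median ratio past 1 in the same direction there, 36 a smaller ratio of the same sign and 5 one of the opposite sign. Of 58 lower genes, 20 were past 1 and 38 smaller with the same sign. Gnb2, a G protein subunit, had 12 UMIs in the NCD library against 280 in the pool, a log2 ratio of 4.22 (3.50 to 5.30), against a median of 3.93 in the other types. The ribosomal protein gene Rps19 had 109 and 666 UMIs, a ratio of 2.38 (2.10 to 2.70) against 2.55. The redox enzyme Gpx4 had 9 and 95 UMIs, a ratio of 3.04 (2.20 to 4.35), and 1.93 to 3.05 in the 4 types.

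**Figure D3:**
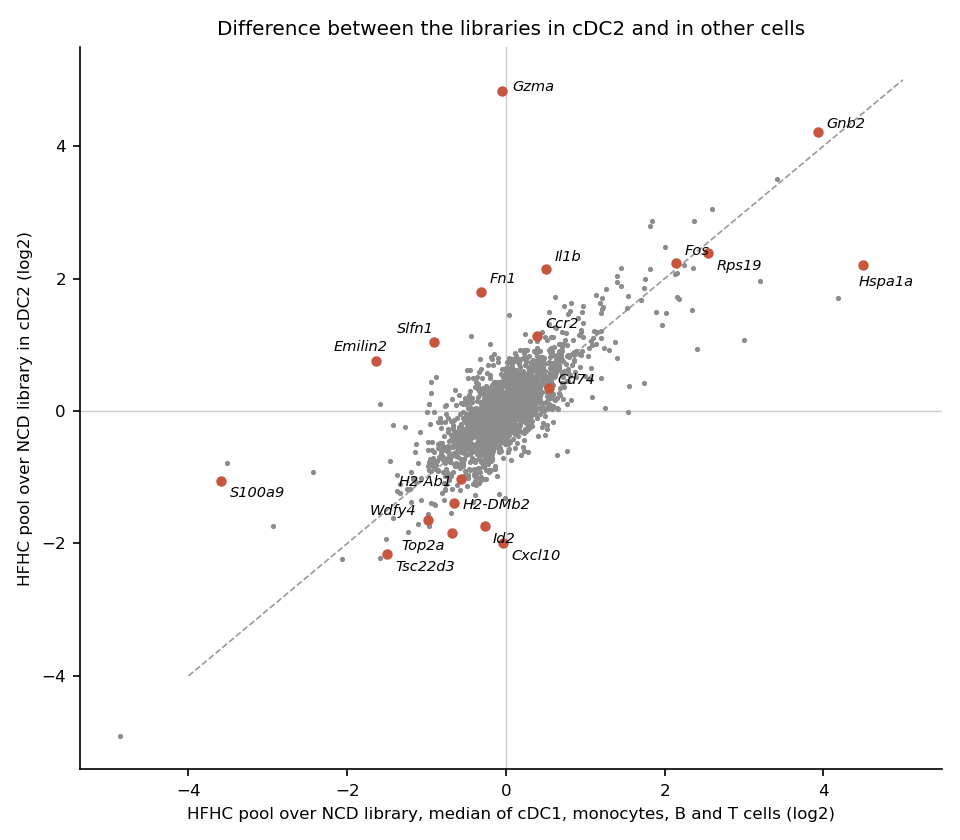
Log2 ratio, pool over NCD library, for each gene with at least 100 UMIs in cDC2 (y axis) against the median of its ratios in cDC1, classical monocytes, B cells and T cells (x axis). The dashed line marks equal ratios; Gnb2, Rps19 and Fos lie near it at the upper right, while Id2, Cxcl10 and H2-DMb2 lie below and Il1b and Fn1 above it, and Gzma, far above, rests on 1 cell.

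Among the class II chain genes H2-Ab1, H2-Aa and H2-Eb1, H2-Ab1 was past 1 and lower in the pool. H2-Ab1 (chr17:34257689-34269419, plus strand) was found in 141 of 146 cDC2 of the NCD library and 95 of 99 of the pool. Per cell it ran from 0 to 53448 CPM with a median of 24816 in the NCD library, and from 0 to 24377 with a median of 10914 in the pool. The cells between the quartiles lay from 16863 to 31556 CPM and from 7288 to 16214 CPM, without overlap, though the whole ranges overlap. Summed, it stood at 22785 and 11151 CPM, a log2 ratio of -1.03 (-1.07 to -0.99), which fell just short of 1 in size in 5 alternatives (-0.99 to -0.90). The ratio was -0.90 in cDC1 and -0.91 in B cells, but 0.13 in classical monocytes and -0.23 in T cells. H2-Aa stood at 14038 and 9319 CPM, a ratio of -0.59 (-0.64 to -0.54), and H2-Eb1 at 8646 and 6232 CPM, a ratio of -0.47 (-0.53 to -0.41). Cd74, the invariant chain that escorts class II molecules, stood at 15760 CPM in the NCD library against 19984 CPM in the pool, a ratio of 0.34 (0.30 to 0.38), with 0.29 to 1.29 in the 4 other types. Ciita, the regulator that turns class II genes on, stood at 595.7 and 522.2 CPM, and its ratio of -0.19 (-0.41 to 0.03) has an interval that includes 0.

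H2-DMb2, a chain of the molecule that loads peptides onto class II, had the lowest ratio of the list. It was found in 86 of 146 and 40 of 99 cDC2, at 534.9 and 203.1 CPM, a log2 ratio of -1.39 (-1.69 to -1.11). In cDC1 the ratio was -0.68 and in B cells -0.62. Thinned to 1500 UMIs, 43.8% (35.5 to 52.3%) and 17.2% (10.3 to 26.1%) of cDC2 held a UMI, and 58.9% and 40.4% did without thinning. The intervals do not overlap, but they cover counting error only and not the spread between libraries or mice. In B cells, which use the gene, these shares were 76.7% and 69.3%, and 77.2% and 83.5% without thinning. The other DM and DO genes were closer to 0, with H2-DMa at 0.05 (-0.16 to 0.25), H2-DMb1 at -0.27 (-0.49 to -0.05), H2-Oa at -0.47 (-0.98 to 0.03) and H2-Ob at -0.47 (-0.85 to -0.09). Over the class II list, 12 of 17 genes could be compared, of which 2 were past 1 and lower (2.7% of all genes were) and none higher, with a median of -0.37. Both calls ended in some alternatives, that of H2-DMb2 in cells without Ly6c2 (-0.99). With the gate after thinning the H2-DMb2 ratio was -2.24. The median of the class II list was -0.33 in B cells, close to that in cDC2, and -0.10 in cDC1. It was 0.26 in T cells and 0.46 in classical monocytes. H2 genes are alike in sequence, so that their counts may share reads. Of the class I list, 13 of 17 genes had values and none was past 1, with a median of -0.21. B2m, its most abundant gene, stood at 3436 and 3944 CPM.

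The starts of 4 class II genes are set beside their ratios. Class II promoters carry a Y box, an inverted CCAAT box that the factor NF-Y binds. The 120 bases before the RefSeq start of each are printed 5′ to 3′ on the gene's strand, from the GRCm38.p6 build, with the letters TGATTGG in capitals. They are shown for the chain genes H2-Aa and H2-Eb1 and the loading genes H2-DMb2 and H2-Oa, whose ratios ran from -1.39 to -0.47.
H2-Aa (chr17:34287824-34287943, minus strand): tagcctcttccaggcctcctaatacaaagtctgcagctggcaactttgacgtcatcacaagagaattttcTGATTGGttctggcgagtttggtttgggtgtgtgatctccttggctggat
H2-Eb1 (chr17:34305747-34305866, plus strand): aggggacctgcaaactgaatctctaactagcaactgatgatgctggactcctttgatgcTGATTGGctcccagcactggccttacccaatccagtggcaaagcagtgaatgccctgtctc
H2-DMb2 (chr17:34145129-34145248, plus strand): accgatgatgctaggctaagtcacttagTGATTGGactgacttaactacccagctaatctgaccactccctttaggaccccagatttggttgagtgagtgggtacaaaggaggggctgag
H2-Oa (chr17:34092259-34092378, plus strand): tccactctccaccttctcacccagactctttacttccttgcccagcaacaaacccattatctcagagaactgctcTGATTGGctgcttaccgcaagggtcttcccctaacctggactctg
The motif began 50, 61, 92 and 45 bases before the start of H2-Aa, H2-Eb1, H2-DMb2 and H2-Oa. Searched on both strands, TGATTGG was present in the 250 bases before the start of 2375 of 32851 promoters, or 7.23%, so that the letters alone are common. The RefSeq starts of H2-DMb2 and H2-Oa lie within the GENCODE genes.

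**Figure D4:**
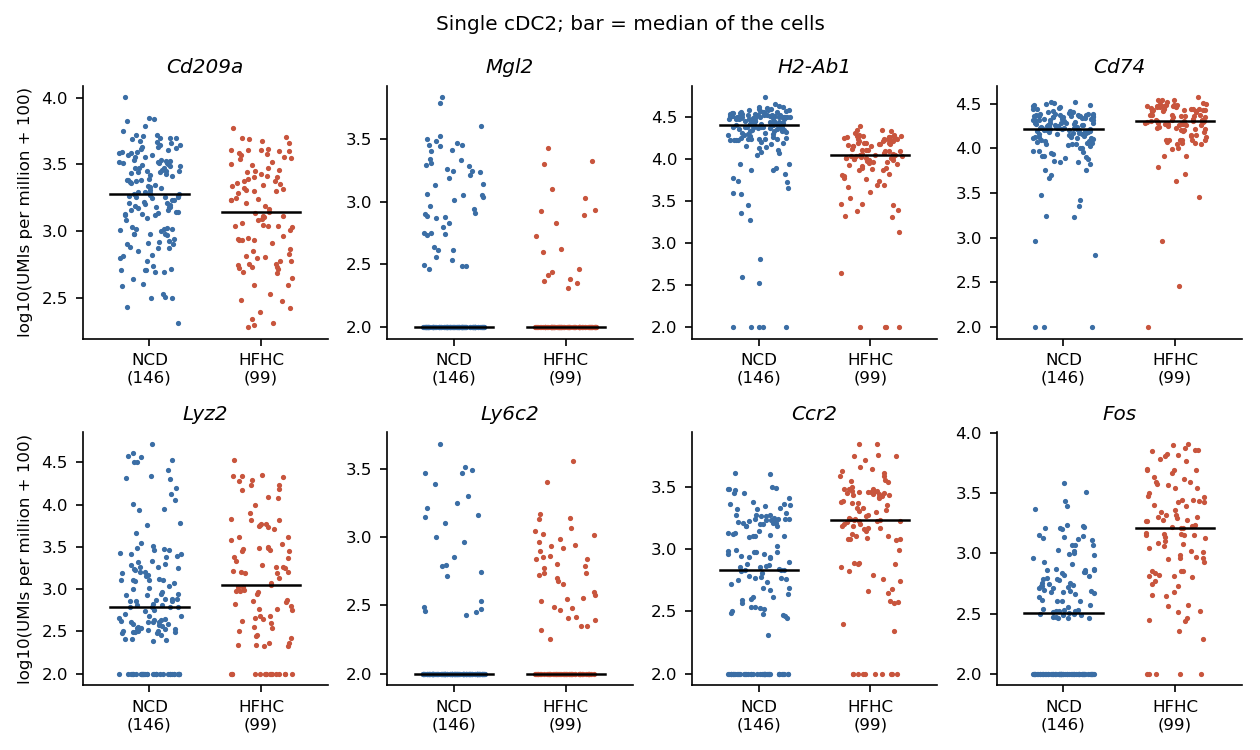
Levels of 8 genes in each cDC2 of the NCD library (146 cells, blue) and the HFHC pool (99 cells, red), as log10 of CPM plus 100, with the median as a bar. Cells at 2.0 held no UMI; H2-Ab1 sat lower and Ccr2 and Fos higher in most cells of the pool, whereas Mgl2 and Ly6c2 were absent from most cells of both libraries.

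Among chemokine receptors, Ccr2, which draws monocytes and their relatives out of the blood, was found in 103 of 146 cDC2 of the NCD library and 89 of 99 of the pool. Per cell it ran from 0 to 4022 CPM with a median of 576.5 in the NCD library, and from 0 to 6949 with a median of 1624 in the pool. Summed, it stood at 847.1 and 1854 CPM, a log2 ratio of 1.13 (0.98 to 1.28), with 0.74 in cDC1 and 0.62 in monocytes. In 2 alternatives the Ccr2 ratio was 0.94 and 0.95. Cx3cr1 had a ratio of 1.01 (0.68 to 1.37), down to 0.74 in cDC2 with under 5 hepatocyte UMIs, with -0.12 in monocytes and 2.40 in T cells. Thinned, Cx3cr1 was found in 18.8% (12.7 to 26.1%) and 39.4% (29.7 to 49.7%) of cDC2, against 0.938% and 0.239% of B cells. Without thinning it was found in 34.9% and 65.7% of cDC2 and in 0.530% and 0.927% of B cells. Of 14 chemokine receptors, 5 had enough UMIs and these 2 were past 1 and higher, beside 4.1% of all genes. Of the 27 genes of the monocyte list, 17 were compared, of which 4 were higher (4.1% of all genes were) and none lower, with a median of 0.43. The other 2 were Fn1, the gene of the matrix protein fibronectin, with 39 and 161 UMIs and a ratio of 1.80 (1.32 to 2.37), and Nr4a1, with 125 and 359 UMIs and a ratio of 1.30 (1.01 to 1.61). Fn1 had a median ratio of -0.32 in the other types. Lyz2, the most abundant of the list, stood at 3238 and 3442 CPM when summed, and Ly6c2 at 221 and 272.7 CPM. Few cells carried the Lyz2 sum, since per cell it ran from 0 to 52290 CPM with a median of 512.5 in the NCD library, and from 0 to 33539 CPM with a median of 1008 in the pool.

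The chemokine genes differed in both directions and several rested on few cells. Of 19 ligands, 7 were compared, with 2 higher and 2 lower, beside 4.1% and 2.7% of all genes. Ccl9, the most abundant, had a ratio of 0.25 (0.02 to 0.48). Ccl22, which draws regulatory T cells, had 23 UMIs in 8 of 146 cDC2 and 89 in 11 of 99, a ratio of 1.69 (1.06 to 2.46), and 3 cells held 65.2% and 73% of them. Ccl17, its partner ligand for the same receptor, had 53 UMIs in 9 cells of the NCD library, 81.1% of them in 3 cells, and 1 UMI in the pool, too few for the comparison. Ccl5 had a ratio of 1.01 (0.50 to 1.58). The interferon-induced T cell attractants Cxcl9 and Cxcl10 were lower, with 315 and 147 UMIs and a ratio of -1.31 (-1.61 to -1.03), and with 136 and 39 UMIs and a ratio of -1.99 (-2.57 to -1.50). Cxcl9 moved to -2.80 with the gate after thinning and to -0.999 with no upper limit on genes. Cxcl10 moved to -4.10 in cells without Ly6c2 and to -1.40 with the gate after thinning. Cxcl9 was found in 20 of 146 and 10 of 99 cDC2, and 3 cells held 69.2% and 82.3% of its UMIs. The highest cell of the pool, with 59 of its 147 Cxcl9 UMIs, held no H2-Ab1 UMI. The ratios of Cxcl9 and Cxcl10 were -0.89 and -0.87 in monocytes and -2.46 and -1.27 in B cells, but 0.86 and 0.79 in cDC1 and 1.25 and 1.57 in T cells. Of 19 interferon-stimulated genes compared from 35, Cxcl9, Cxcl10 and the surface gene Ly6a (-1.01) were past 1 and lower (2.7% of all genes were). None was higher, and the median was 0.08.

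Cytokine and maturation genes were sparse. The inflammatory cytokine Il1b had 41 UMIs in 24 of 146 cDC2 and 215 in 36 of 99, that is 69.2 and 311.9 CPM, a log2 ratio of 2.14 (1.69 to 2.69). Its ratio was 1.82 in cDC1 and 1.67 in monocytes, and -0.65 and -0.76 in B cells and T cells. Tnf had 13 and 69 UMIs, too few for the comparison. Il12b, which drives type 1 T cell responses, had 0 UMIs in the NCD library and was found in 1 of 99 cells of the pool. Of 24 maturation genes 8 were compared, with Ccl22 and Ccl5 past 1 and higher (4.1% of all genes were), none lower and a median of 0.68. Ccl5 is also a gene of T and NK cells, and 1 cDC2 of the pool that held 229 of the 326 UMIs of the T and NK cell list held 37 of the 102 Ccl5 UMIs. In the NCD library the cell with most UMIs of that list held 14 of 43. Tmem123, the most abundant of them, stood at 251.4 and 369.9 CPM. The costimulatory genes Cd80 and Cd86 were found in 2.08% and 6.25% of thinned cDC2 of the NCD library and in 1.01% and 2.02% of the pool, against 0.750% and 4.32%, and 0.358% and 5.02%, of B cells. Without thinning these shares were 4.79% and 11%, and 6.06% and 14.1%, of cDC2, and 0.455% and 3.94%, and 1.51% and 7.76%, of B cells. None of 8 genes compared from the costimulation and checkpoint list was past 1. Cd48, the most abundant, stood at 290.2 and 252.4 CPM.

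Among transcription factors, Id2 stood apart. It encodes an inhibitor of helix-loop-helix factors that favours conventional over plasmacytoid dendritic cells. It was found in 93 of 146 and 49 of 99 cDC2, at 1011 and 301.7 CPM, a log2 ratio of -1.74 (-1.98 to -1.51). In cDC1 it was -0.64, in T cells -1.37, and in monocytes and B cells 0.10 and 0.22. Of 29 dendritic cell transcription factors, 18 were compared, and Id2 was the 1 past 1, at a median of 0.01 for the list. Beside this, 4.1% of all genes were higher and 2.7% lower. Wdfy4, needed in cDC1 to present antigen of dead cells to CD8 T cells, was also lower, with a ratio of -1.64. Among C-type lectins, 10 of 33 genes were compared, with Clec4a3 (50 and 168 UMIs, 1.51, 1.07 to 2.02) higher and Mgl2 lower. Without Cd209a, Clec10a and Mgl2, which chose the cells, 7 lectins remain, with Clec4a3 higher and none lower. Of 22 cDC2 markers outside the rule, 14 were compared, with Cd7 higher (91 and 233 UMIs, 1.13, 0.78 to 1.50) and H2-DMb2 lower, at a median of 0.27. The Cd7 ratio fell short of 1 with a mitochondrial limit of 10% (0.88) and was 1.89 with no Clec4f, Vsig4 or C1q UMIs. Cst3, the most abundant of these markers and a protease inhibitor, stood at 6734 and 3448 CPM, a ratio of -0.97 (-1.04 to -0.89), with -0.40 to -0.78 in the other 4 types. Of 14 growth factor and cytokine receptors compared, leaving out Flt3 as a gene of the rule, none was past 1, and the GM-CSF receptor chain Csf2ra, the most abundant, stood at 772.8 and 662.9 CPM. None of 6 pattern recognition genes was past 1 either.

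The median of the immediate-early genes was above 0 in cDC2 and in the 4 other cell types. Of 18 immediate-early genes compared from 25, 6 were higher and none lower, beside 4.1% and 2.7% of all genes. Their median was 0.82 in cDC2, 0.96 in cDC1, 1.12 in monocytes, 0.68 in B cells and 1.18 in T cells. Fos stood at 432 and 2041 CPM, a ratio of 2.24 (2.05 to 2.44), and was found in 82 of 146 and 94 of 99 cDC2. Ier2, Fosb, Atf3, Dusp1 and Nr4a1 were the others, and Zfp36, the most abundant, had a ratio of 0.46. Of 9 heat shock genes the near-identical copies Hspa1a (2.20) and Hspa1b (1.71) were past 1 and higher, beside 4.1% of all genes. Both were below their 2.68 to 5.84 and 2.66 to 5.26 in the 4 other types. The most abundant, Hsp90ab1, stood at 1949 and 1915 CPM. Of 9 glucocorticoid-responsive genes, Tsc22d3 (-2.16), Ddit4 (-2.22), Klf13 (-1.12) and Mt1 (-1.01) were lower and Dusp1 (1.05) higher. Of all genes, 2.7% were lower and 4.1% higher, and the median of this list was -0.50. Tsc22d3 encodes GILZ, a mediator of glucocorticoid effects, and was also lower in the 4 other types, at -0.72 to -1.90.

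Cell cycle genes were carried by few cells. Of 8 compared, Top2a and Stmn1 were lower in the pool (2.7% of all genes were) and none higher, with a median of -0.75. Top2a had a ratio of -1.84, but -0.89 in cDC2 with under 5 hepatocyte UMIs and -4.30 with the gate after thinning. The median of the list was -0.98 in cDC1 and 0.32 in B cells. Of 144 thinned cDC2 of the NCD library, 14 or 9.72% (5.42 to 15.8%) held UMIs of at least 2 of 10 mitotic genes such as Mki67 and Top2a. In the pool it was 4 of 99 or 4.04% (1.11 to 10%), and the intervals overlap. Thinned cDC1 reached 15.4% (10.6 to 21.2%) and 4.35% (1.61 to 9.22%), overlapping cDC2 in both libraries, whereas monocytes reached 0.813% and 0.397% and B cells 1.50% and 3.11%. Without thinning the shares of cDC2 were 13% and 8.08%, those of cDC1 17.8% and 17.6%, and those of B cells 0.833% and 5.33%. The 5 highest cells held 66.2% and 88.9% of these UMIs.

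Over 6 metabolic lists, grouped after their values were seen, 52 genes were compared, of which 6 were past 1 and higher and 2 lower, beside 4.1% and 2.7% of all genes. Among iron and redox genes, 13 of 24 were compared, with the ferritin chain Ftl1 (1.86) and Gpx4 higher at a median of 0.62, Fth1, the other ferritin chain, at 0.30, and Ftl1 had 1.55 to 1.84 in the other types. Of lipid uptake and storage genes, 9 of 31 were compared, with Lrp1, an uptake receptor, higher (1.27) and Apoe, the apolipoprotein, lower (-1.19, and -0.61 to -0.90 in the other 4 types). Of 9 compared from the cholesterol and fatty acid synthesis list, Insig1 (1.06) and the desaturase Scd1 (1.59) were higher and Cyp51 (-1.12) lower, at a median of 0.08. None of 9 glycolysis genes, 7 TCA cycle genes or 7 apoptosis genes was past 1, and the glycolytic enzyme Gapdh stood at 788 and 1037 CPM. In the pentose phosphate list Pgls (2.86) was, with a median of 1.84 in the other types, and in the lysosome list 1 of 21, Hexa (1.54), while the most abundant lysosome gene, Psap, stood at 3716 and 4075 CPM. The Fc receptor chain Fcer1g stood at 1765 and 1707 CPM. Hepatocyte genes had a median of 0.80 over 8 genes, with Gc (1.19) and Serpina1a (1.58) past 1, and the median turned to -0.16 with the gate after thinning.

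**Figure D5:**
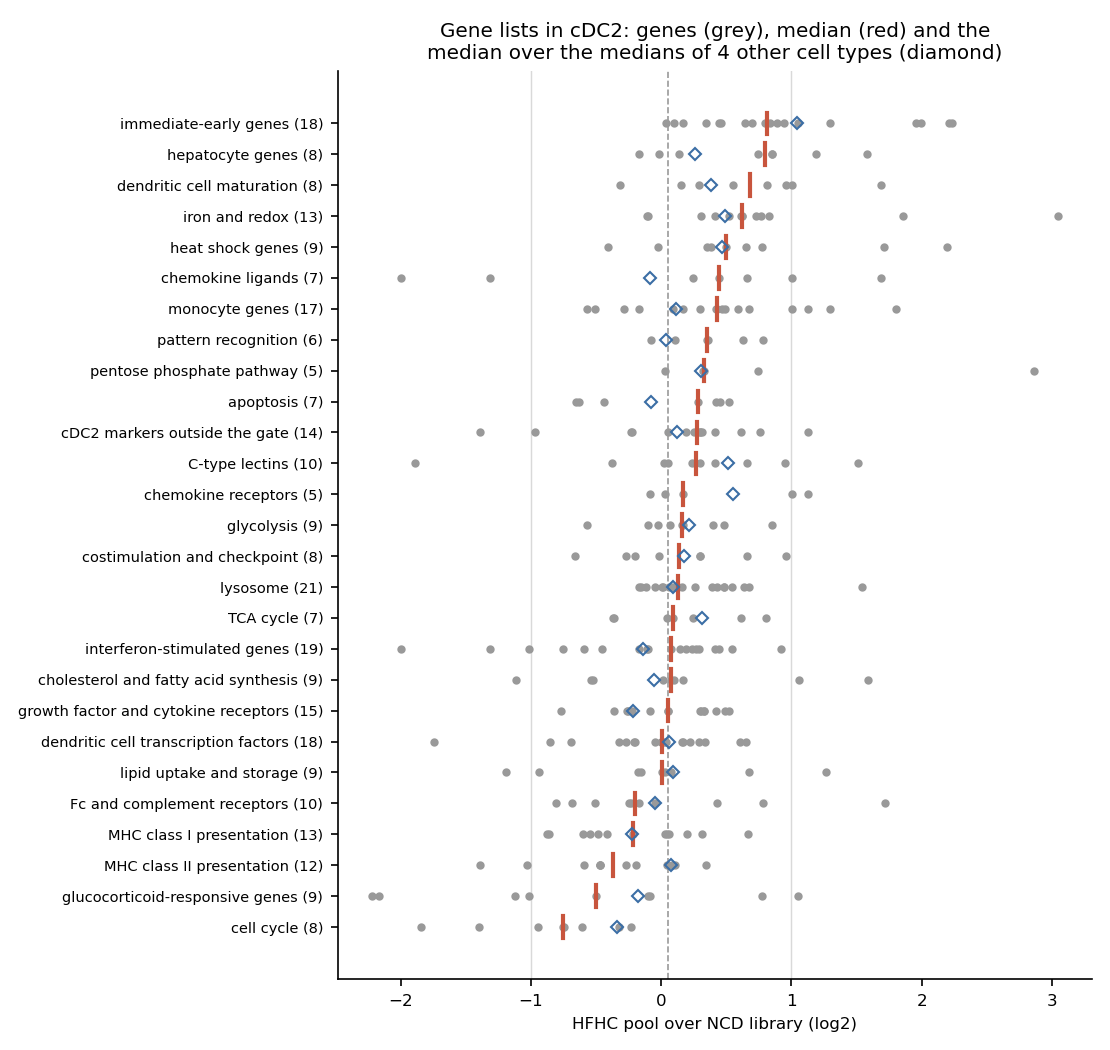
Log2 ratios, pool over NCD library, in cDC2 for each list with at least 5 genes compared (number in brackets), with the list's median in red, all genes' median as a dashed line and, as a diamond, the median over the list medians of 4 other cell types. Immediate-early genes lay highest and cell cycle genes lowest. For MHC class II the red bar lies left of the diamond, but the list's median in B cells (-0.33) was close to that in cDC2 (-0.37).

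The cDC2 differed among themselves along Ly6c2, a gene of the monocyte list that the rule did not use. A Ly6c2 UMI was found in 25 of 146 cDC2 of the NCD library and 43 of 99 of the pool. Thinned, the shares were 13.2% (8.13 to 19.8%) and 22.2% (14.5 to 31.7%), which overlap, against 5.07% and 5.02% of B cells. Unthinned, they were 17.1% and 43.4% of cDC2 and 4.02% and 8.81% of B cells. The cells with and without the UMI were of similar depth, with medians of 3875 and 3798 UMIs in the NCD library and 6463 and 6858 in the pool. The cells with Ly6c2 were not all alike. In the NCD library 1 held 11 Ly6c2 and 8 Cd7 UMIs but no UMI of Lyz2 or H2-Ab1. Another held 22 Ly6c2, 173 Lyz2 and 24 H2-Ab1 UMIs but no Cd7 UMI. Of 1839 genes with at least 50 UMIs in each library, 11 were at least 2-fold higher in the cells with Ly6c2 in both libraries and 12 at least 2-fold lower. These genes were picked by the split itself and are a description. Higher were Lyz2 (10130 against 1760 CPM in the NCD library, 5830 against 1757 in the pool), the transglutaminase gene F13a1 (726.3 against 41 CPM, and 424.2 against 143.5), Cebpb, Lgals1, Irf7 and Apoe. Lower were H2-DMb2 (210.3 against 604.5 CPM, and 63.1 against 301.9), H2-Oa, H2-Ob, Itgax (200.7 against 567.6 CPM, and 266.4 against 544.4), the short-chain fatty acid receptor Ffar2, Mki67 and Ube2c. Mki67 and Ube2c are cell cycle genes, which few cells carried.

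The split by Ly6c2 also divided the class II genes. H2-Ab1 stood at 25474 CPM in the cells without Ly6c2 and 10245 CPM in those with it in the NCD library, and at 13164 and 8298 CPM in the pool. Between the libraries its log2 ratio was -0.95 without Ly6c2 and -0.30 with it, and that of H2-DMb2 -0.99 (-1.32 to -0.69) and -1.72 (-2.72 to -0.77). H2-Aa and H2-Eb1 had ratios of -0.51 and -0.36 without Ly6c2 and 0.09 and 0.44 with it. Id2 (-1.59 and -1.23) and Wdfy4 (-1.50 and -1.50) were lower in the pool on both sides of the split, and Cd74 was higher on both (0.39 and 0.94). Ccr2 had ratios of 1.25 and 0.45, and F13a1 of 1.76 and -0.78, so that F13a1 was higher in the pool in one set of cells and lower in the other.

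The cDC2 were also split by a UMI of Cd7 and by one of Mgl2, and the genes named here were picked because they differed by the split. In both libraries, 8 of 1839 genes were at least 2-fold higher and 12 lower in the cells with Cd7, and 2 of 1840 higher and 9 lower in those with Mgl2, itself a gene of the rule. Cd7, a lymphoid surface gene that is also on the pDC list, was found in 36 of 146 cDC2 and 46 of 99. These cells were deeper than those without Cd7, with medians of 4642.5 against 3702 UMIs in the NCD library and 7065.5 against 6349 in the pool. The cells with Cd7 held more Ffar2, Ube2c and Lgals1 and less Axl, Fcgr2b, Lyz2 and Cxcl9 in both libraries. Ffar2, for example, stood at 294.3 CPM in the 36 cells and 104.8 CPM in the other 110 of the NCD library, and at 144.7 CPM in the 46 and 48.5 CPM in the other 53 of the pool. Axl, a receptor for dying cells, stood at 36.8 against 165.3 CPM and at 29.5 against 142.6 CPM. The cells with Mgl2 held more Axl (222.7 CPM in 52 cells against 78.6 CPM in 94, and 221.8 CPM in 19 against 55.5 CPM in 80) and Slamf9, and less Cd7, Cxcl9, Mki67 and Gbp2. In both splits Cxcl9 and the cell cycle genes rested on few cells. In the NCD library and the pool, 3 cells held 69.2% and 82.3% of Cxcl9 UMIs, and 5 cells held 66.2% and 88.9% of the UMIs of 10 mitotic genes. Thinned, Axl was found in 16% and 7.07% of cDC2 against 2.06% and 1.43% of B cells, and without thinning in 26.7% and 23.2% against 1.89% and 2.43%.

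Chil1, the mouse gene of Chi3l1, was barely detected. It had 3 UMIs in 3 of 146 cDC2 of the NCD library and 0 in 99 cDC2 of the pool, for which the floor of 3 counts allows up to 3.03% of the pool's cells with a UMI and up to 4.35 CPM. Thinned, the share was 1.39% of the NCD library's cDC2 and 3.19% of its B cells, and without thinning it was 2.05% and 1.82%, so that the order of cDC2 and B cells changed with thinning. In the pool the B cells reached 0.119% thinned and 0.463% unthinned. The pool mixes wild-type cells with cells of Chil1-/- mice, in which this gene is knocked out, in a proportion not known here. Its Chil1 values and bounds are therefore no level of wild-type cells on the HFHC diet. The chitinase-like list of 9 genes had no gene with enough UMIs for a comparison, and Chia1, Chil4, Chil6 and Chit1 had no UMI in any cDC2.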

How the data were processed

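Livers were dissociated and single cells captured with BD Rhapsody. The deposited tables hold raw counts of molecules per cell and gene, corrected for sequencing errors (RSEC). Per the file headers and labels they came from the BD Rhapsody WTA Analysis Pipeline 1.10.1, GRCm38 and GENCODE vM19; the labels also name Seurat, with no version. Summed over kept cells, they reached 49509045 (NCD library) and 52044785 UMIs (HFHC pool). Strand handling is not given in the sources used here, so that overlapping genes may share reads. The deposited sample-tag library was not analysed here.

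Cells were selected by the rule in the opening, with other types chosen by marker UMIs: classical monocytes by at least 3 Ly6c2 and 2 Lyz2 UMIs, a UMI of Csf1r or Ccr2 and at most 3 Retnlg UMIs; cDC1 by 2 UMIs of Xcr1 and Clec9a; B cells by 2 of Cd79a; T cells by 2 of Cd3e. Alternatives changed the gate, depth, scaling and count minimum, or left out sets of cells; those leaving out all cells with a Ly6c2 UMI, cells with 5 or more hepatocyte UMIs, or the top cell, and the first monocyte gate were chosen after seeing the data. For each type and library the UMIs of its cells were added up and converted to CPM. Log2 ratios were formed after adding 1 UMI to each sum, where a gene reached 100 UMIs over the pair of sums. A gene was called past a log2 ratio of 1, with no test, as each condition is 1 library. The filter is on the sum, so a gene low in 1 library can pass. Counts have exact Poisson and shares exact binomial 95% intervals (scipy 1.17.1); these, and the floor of 3 counts, cover counting error only. Shares were taken in cells thinned to 1500 UMIs (seed 42). Scrublet in scanpy 1.11.5 called doublets over all kept cells. The ratio was run on simulated Poisson counts with known folds. These hold no spread between cells, mice or libraries, so they cannot show how often such spread alone gives a call. Promoters came from RefSeq, GRCm38.p6; the 9 genes located were matched by symbol to GENCODE M21.

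Named genes were those of the rule, Chil1 and Chil3, the members past 1 and the most abundant member of each list, and the genes at the ends of each ranking: 10 highest and 10 lowest between libraries, with at least 10 UMIs in each, 10 highest and 5 lowest against each other type, and 10 farthest from the median of 4 other types. The genes of the splits, Gpx4, Wdfy4 and others in the text were named after their values were seen. Some genes that the rule names are not reported here. The members, lists and alternatives were chosen with earlier results of these data known.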

Additional observations from a re-analysis of the deposited data

Results flagged for a closer look

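Slfn1, a gene of the interferon-linked Schlafen family, moved against the other cells. It had 31 UMIs in the cDC2 of the NCD library and 76 in those of the HFHC pool, a log2 ratio of 1.05 (0.46 to 1.73), whereas it was -1.03 in cDC1, -0.77 in classical monocytes, -0.57 in T cells and lowest in B cells, with a median of -0.90. With 1 library per condition the difference between the types was not tested, and it was found among all genes compared. In cDC2 the ratio fell short of 1 under 4 alternatives, down to 0.85 with 10 UMIs added. No other gene past 1 in cDC2 was at least 0.5 the other way in all 4 types.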

How the results depend on the processing

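No paired analysis was possible because each condition is 1 library, and no replicate could be left out. The share of cDC2 became 0.484% and 0.387% with at least 6 marker UMIs, 0.326% and 0.357% with no Clec4f, Vsig4 or C1q UMIs, and 1.22% and 0.771% of cells with 1500 UMIs or more when the gate followed thinning; without cells of 3 or more Ly6c2 UMIs it was 0.387% in the pool. With no Clec4f, Vsig4 or C1q UMIs the pool had the higher share, against the main order. The 91 higher and 60 lower genes became 24 and 17 with thinned cells, 481 and 324 with at least 20 UMIs, 18 and 7 with at least 500, and 52 and 33 in cells with under 5 hepatocyte UMIs, where fewer or more genes were compared; 37 were lower with no Clec4f, Vsig4 or C1q UMIs. Of 27 lists with at least 5 genes compared, 6 had a median at least 0.5 from that of all genes; this became 3 without cells of 3 or more Ly6c2 UMIs, 2 with the gate after thinning, 3 by the mean of the cells' CPM and 3 in cells with under 5 hepatocyte UMIs. The hepatocyte median reversed to -0.16 with the gate after thinning. The cause was not tested where the number of genes or cells does not show it.

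Against monocytes, the higher and lower genes of the NCD library (109 and 197) became 18 and 32 with at least 500 UMIs, 33 and 86 with thinned cells, and 175 and 352 with the first monocyte gate, which held cells rich in Retnlg. In the pool (131 and 290) they became 20 and 85, and 24 and 101. Against cDC1 they became 25 and 32 (500 UMIs) and 47 and 52 (thinned) in the NCD library, and 26 and 31, and 30 and 19, in the pool. The share of cDC2 with Ly6c2 was 43.4% in the pool without thinning. That with H2-DMb2 was 31.7%, 59.6% and 58.9% in the NCD library at 1000 and 3000 UMIs and without thinning, and 26.9% and 40.4% in the pool at 3000 UMIs and without thinning. Over 43 named genes, 479 of 546 alternative ratios stayed within the counting interval, 67 moved and none past 1 reversed. H2-Ab1 fell short of 1 in 5 alternatives (-0.99 to -0.90), Cx3cr1 in 7 (down to 0.74), H2-DMb2 in cells without Ly6c2 (-0.99), Ccr2 in 2 (0.94 and 0.95), Cd7 in 2 (down to 0.88), Cxcl9 narrowly with no upper limit on genes, S100a9 in 7 (up to -0.02) and Gm6377 with 10 UMIs added (0.87). S100a8, at -0.78 and not past 1, turned to 3.05 with no Clec4f, Vsig4 or C1q UMIs and to 0.08 to 0.18 in 3 other alternatives. Top2a was -0.89 in cells with under 5 hepatocyte UMIs and -4.30 with the gate after thinning. Genes under 100 UMIs could not be compared, which left out most cytokines and Zbtb46, Irf4 and Ccr7.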

Other observations

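Some values rested on single cells. Gzma, a granule enzyme of killer lymphocytes, had 2 UMIs in the cDC2 of the NCD library and 98 in those of the HFHC pool, of which 96 lay in 1 cell. Of the 180 Retnlg UMIs of the NCD library 95 lay in 1 cell, against 6 UMIs in the pool (log2 ratio -4.91, -6.59 to -3.97), and of the 94 S100a8 and 78 S100a9 UMIs of the pool 90 and 76 did. In the NCD library 3 cells held 85.6% of the 139 S100a8 UMIs. Emilin2 had a log2 ratio of 0.75 (0.34 to 1.19) in cDC2 and a median of -1.64 in the other types, and Gm6377 one of 1.08 against 3.01. Of the other genes at the ends of the ranking, Gm9844 (3.51) and Tspo (2.87) were higher and BC037034 (-2.23), Cox17 (-1.93), Pclaf (-1.82) and Ccnd2 (-1.74) lower in the pool, each with a median of the same sign in the other types. Outside the filters, 1 cell with over 25% mitochondrial UMIs in the NCD library and 1 with over 4000 genes in the pool met the rule.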
